A study of Mus musculus with 43 samples.

Results

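The genes described here encode proteins of the mitochondrial ribosome: every annotated protein-coding mouse gene whose symbol is Mrpl or Mrps followed by a number, without pseudogenes. The mouse annotation holds 78 such symbols, and 72 of them had a row in each of the 5 deposited tables, among 22622 gene rows per table. These 72 members comprise 45 Mrpl genes, named for the large subunit, and 27 Mrps genes, named for the small subunit; Mrpl15, Mrpl16, Mrpl19, Mrpl22, Mrps25 and Mrps33 were not analysed here, and 6 pseudogenes were left out. The names follow the structure with exceptions. Mrps30 and Mrps18a sit in the large subunit of the mammalian particle, and Mrps36 is a component of the 2-oxoglutarate dehydrogenase complex rather than of the ribosome.

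RNA was sequenced from whole inguinal fat of mice, a subcutaneous white depot that gains heat-producing beige adipocytes near weaning and on cold exposure. The 43 samples form 9 groups, and comparisons were made within a table. Wild-type C57BL/6J mice at postnatal day 28 (P28) had been housed at 30 C (n = 4) or 22 C (n = 4), and TrkA-flox Th-cre mice at P28 and 22 C (n = 4) were set against those same wild-type 22 C samples, so the controls of that comparison carry neither the floxed allele nor Cre. Bcl6-flox Prx1-cre mice (n = 8) and Bcl6-flox mice (n = 7) were compared at P25 and 22 C. These genotypes were also compared at 4 C and 9 weeks of age (n = 4 each). Wild-type C57BL/6J mice of 9 weeks were compared between 4 C and 22 C (n = 4 each). The Th promoter drives Cre in catecholamine-producing cells such as sympathetic neurons. Bcl6 encodes a zinc finger repressor of transcription. The Prx1 promoter drives Cre in mesenchymal progenitors, so deletion there is not limited to adipocytes.

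The mitochondrial ribosome translates the few proteins encoded by mitochondrial DNA, all of them subunits of the oxidative phosphorylation complexes, while its own proteins are encoded in the nucleus, made in the cytosol and imported. The large subunit forms peptide bonds and holds the exit tunnel at the inner membrane; the small subunit binds the messenger RNA and decodes it. Besides proteins with bacterial relatives, the particle holds many proteins found only in mitochondria. Brown and beige adipocytes are rich in mitochondria, and oxidative phosphorylation supplies the proton gradient that the uncoupling protein Ucp1 dissipates as heat.

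Values are normalized counts, and depth estimated from the most frequent low value ran from 3503000 to 30730000 reads per library. Of the 72 members, 71 reached 10 in enough libraries to be tested in every table. Mrpl21 did not: it was at 0 in most libraries and reached 5.95 at most. The labelled tissue was checked against its markers, and the 5 measured adipocyte markers summed to between 20965 and 300660 per library. In P25 libraries Xist, the RNA of the inactive X chromosome, was high in those whose column carries an F and low in those with an M; libraries of both kinds stood in every group of the other tables except the Bcl6 genotypes at 9 weeks, where it was high in every library. Whether the samples of a group are separate animals is not stated in the labels, and the p-values therefore cover only sample-to-sample spread, which may be technical.

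Promoters are shown for some of the members that passed. These are Mrps6 and Mrpl45, higher in Bcl6-flox Prx1-cre tissue, and Mrps2, which passed the test in 3 comparisons. Mrpl12, lower in both P28 comparisons, and Mrps22, higher in the cold, are shown too. Each sequence is the 150 bases before the start in the gene's promoter entry, from RefSeq on GRCm38.p6, written 5′ to 3′ on the gene's strand. Capitals mark matches to motifs that were searched on both strands. In the RefSeq gene annotation of GRCm38 these genes span chr16:92058336-92112227 (Mrps6), chr11:97314923-97329920 (Mrpl45), chr2:28465951-28471177 (Mrps2), chr11:120484637-120488754 (Mrpl12) and chr9:98588730-98601679 (Mrps22, minus strand). The windows are chr16:92058186-92058335 (+) for Mrps6, chr2:28467916-28468065 (+) for Mrps2, chr11:120484487-120484636 (+) for Mrpl12, chr11:97315566-97315715 (+) for Mrpl45 and chr9:98601680-98601829 (-) for Mrps22. The starts used for the Mrps2 and Mrpl45 windows lie inside the spans of these genes.
Mrps6: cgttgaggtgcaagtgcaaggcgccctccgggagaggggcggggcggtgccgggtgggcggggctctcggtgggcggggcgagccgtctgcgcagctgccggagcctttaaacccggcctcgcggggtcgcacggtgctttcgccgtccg
Mrps2: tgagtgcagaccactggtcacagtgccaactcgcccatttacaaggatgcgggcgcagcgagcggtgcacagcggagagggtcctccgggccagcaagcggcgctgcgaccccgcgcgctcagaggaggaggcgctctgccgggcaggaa
Mrps22: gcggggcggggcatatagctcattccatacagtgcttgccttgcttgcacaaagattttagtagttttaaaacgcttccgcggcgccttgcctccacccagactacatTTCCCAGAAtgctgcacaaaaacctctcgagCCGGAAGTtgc
Mrpl12: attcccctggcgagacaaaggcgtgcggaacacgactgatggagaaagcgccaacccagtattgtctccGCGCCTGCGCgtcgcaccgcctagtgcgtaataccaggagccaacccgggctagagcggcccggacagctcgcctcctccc
Mrpl45: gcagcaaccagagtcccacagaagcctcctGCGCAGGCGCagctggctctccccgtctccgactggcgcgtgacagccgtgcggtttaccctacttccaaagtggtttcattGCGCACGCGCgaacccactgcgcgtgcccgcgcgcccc
The search covered 65 members with a promoter entry, over 250 bases before and 50 after the start, and 4 motifs, of which the ETS and TTCCNNGAA letters can overlap through a shared TTCC. The core motif of nuclear respiratory factor 1 (NRF1) stood in 13 of the members and in 5.19% of all 27025 genes with an entry. CCGGAAGT, bound by ETS factors, stood in 18.5% and 4.31%, and AAGATGGC, bound by YY1, in 18.5% and 3.19%. TTCCNNGAA, shared by STAT5 and BCL6, stood in 6.15% of members and 5.60% of all genes. In the sequences shown, capitals in Mrpl12 and Mrpl45 are NRF1 matches, and those in Mrps22 are a TTCCNNGAA match followed by an ETS match. The Mrps6 and Mrps2 windows held none of the 4. NRF1 letters stood in 24.4% of 41 large subunit members and 12.5% of 24 small subunit members, and YY1 letters in 6 genes of each. Among the 11 members that fell at 30 C at P28, NRF1 letters stood in 1, Mrpl12, and ETS letters in 0. YY1 letters stood in 3 of these 11 and TTCCNNGAA in 2.

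Among the members, levels per kilobase of the longest coding transcript spanned a wide range. In wild-type tissue at P28 Mrpl42 was the highest, at 414 normalized counts per kilobase at 30 C and 532 at 22 C. Mrpl12, the stalk protein that recruits translation factors, ranked 4 at 30 C with 339 per kilobase and 2 at 22 C with 480. Mrpl58, a peptidyl-tRNA hydrolase built into the large subunit, was the lowest of the tested members, at 12.2 per kilobase at 30 C and 16.2 at 22 C. Mrps6, a small subunit protein with a bacterial relative, ranked highest of all members in Bcl6-flox Prx1-cre tissue, at 1829 per kilobase against 993 in Bcl6-flox tissue at P25. At 9 weeks and 4 C it was also highest in Bcl6-flox Prx1-cre tissue, at 4051 per kilobase.

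Large and small subunit members were compared within each library. The mean log2 level of the large subunit members minus that of the small subunit members, taken in each library, differed between 30 C and 22 C by 0.02 (pooled SD 0.05). It differed by 0.06 (0.05) between TrkA-flox Th-cre and wild type. The Bcl6-flox Prx1-cre and Bcl6-flox groups differed by -0.01 (0.03) at P25 and -0.03 (0.03) at 9 weeks, and 4 C and 22 C at 9 weeks by -0.04 (0.04). The ranges of the groups overlapped in all 5 comparisons. Only the TrkA difference exceeded its pooled SD.

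**Figure D1:**
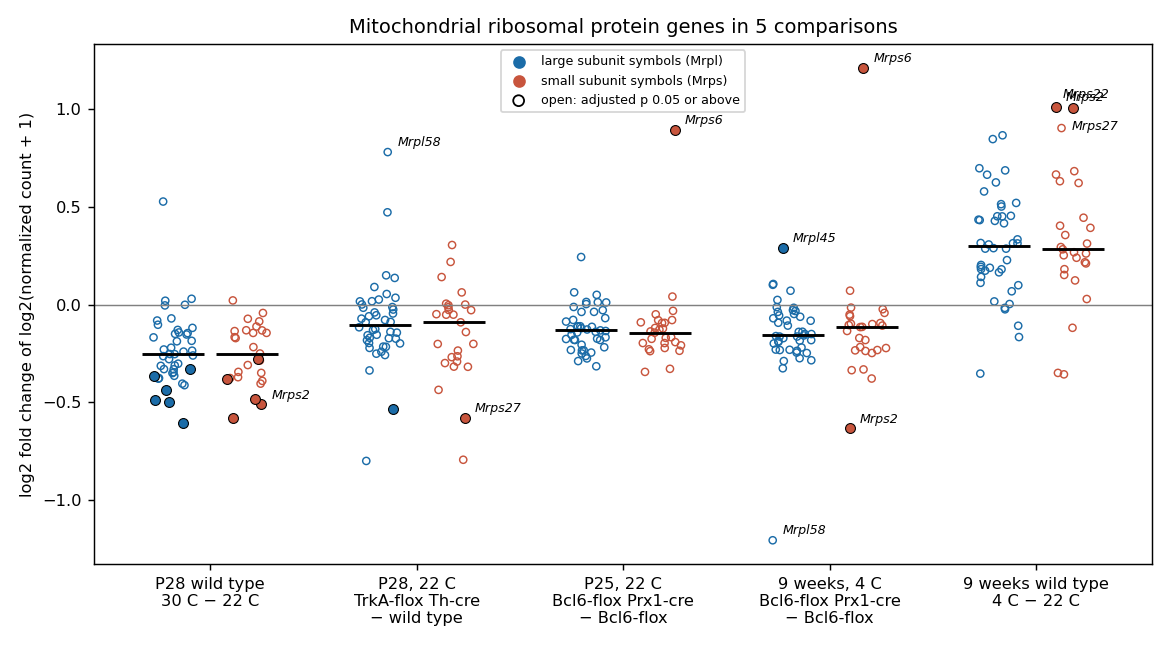
Each point is 1 of 71 members, with its log2 fold change (log2 of normalized count + 1) on the vertical axis, in 5 comparisons; blue points are Mrpl genes, red points Mrps genes, filled points passed limma at an adjusted p under 0.05, and bars are medians. The medians of both subunits lie near -0.25 for 30 C against 22 C and near 0.3 for 4 C against 22 C, and Mrps6 stands apart from the other members in both Bcl6 comparisons.

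At P28, most mitochondrial ribosomal protein transcripts were lower at 30 C than at 22 C. At 30 C, 11 of 71 members fell relative to 22 C and 0 rose (limma, adjusted p under 0.05), 6 of 44 in the large and 5 of 27 in the small subunit; of all 12283 genes tested, 3.17% fell, 1.29% rose and 4.45% passed in either direction. The log2 fold change was negative in 67 of 71 members, with a median of -0.25 against 0.01 over all tested genes. In 29 members every 30 C library lay below every 22 C library and in 0 above, against 7.72% and 5.23% of all tested genes. The summed members made up 0.262 ± 0.0102% of all normalized counts at 30 C and 0.298 ± 0.00425% at 22 C (SD, n = 4 each). Because this is whole tissue, fewer cells of a type and less RNA per cell cannot be told apart.

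Mrpl12 had 482, 460, 416 and 428 normalized counts at 30 C, against 643, 669, 544 and 673 at 22 C. The groups did not overlap. Its log2 fold change was -0.50 ± 0.09 (SE; limma adjusted p = 0.0156). Mrps2, on the solvent side of the small subunit, had 213, 190, 264 and 209 at 30 C, against 308, 280, 323 and 333 at 22 C, again without overlap; its fold change was -0.51 ± 0.11 on the log2 scale (limma adjusted p = 0.0344).

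Mrpl34, a small protein buried in the large subunit, had 121, 115, 121 and 91.4 normalized counts at 30 C, against 192, 171, 157 and 162 at 22 C. It had the most negative fold change of the members, -0.60 ± 0.12 (limma adjusted p = 0.0252), and its groups stood clear of each other. Mrps36, the dehydrogenase component, had 115, 116, 116 and 121 at 30 C, against 162, 204, 187 and 153 at 22 C. The 30 C libraries lay within a narrow band below all 22 C libraries, and the log2 fold change was -0.58 ± 0.10 (limma adjusted p = 0.0178).

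Mrpl53, a large subunit protein without a bacterial relative, had 160, 129, 137 and 143 normalized counts at 30 C, against 197, 194, 189 and 219 at 22 C (log2 fold change -0.49 ± 0.09; limma adjusted p = 0.0214). Mrps11, on the platform of the small subunit, had 71.2, 69.8, 89.5 and 74.5 at 30 C, against 101, 106, 114 and 105 at 22 C (-0.48 ± 0.11; limma adjusted p = 0.0461). In neither gene did the groups overlap. The other 5 that fell were Mrpl20, Mrps23, Mrpl50, Mrpl49 and Mrps7, the last a head protein of the small subunit, with log2 fold changes of -0.44, -0.38, -0.36, -0.33 and -0.28. Their limma adjusted p-values ran from 0.0270 for Mrps23 to 0.0495 for Mrpl50. Of the 43 tested members with a bacterial relative 6 fell, and of the 27 without one 4 fell; Mrps36 belongs to neither class. Annotated exons of Mrpl53 share 695 bases with the gene model Gm42688 on the same strand, and those of Mrps7, Mrps11, Mrpl12 and Mrpl49 overlap genes on the opposite strand; how reads were assigned there is not given in the sources used here, so those values carry that uncertainty.

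Some members did not follow. Mrpl58 had 33.9, 33.2, 11.3 and 47.8 at 30 C, against 0, 38.4, 54.9 and 75.02 at 22 C, and its positive log2 fold change of 0.53 ± 1.25 goes against its means of 31.6 at 30 C and 42.1 at 22 C. Mrps12, a decoding-centre protein, averaged 119 ± 22.8 at 30 C and 125 ± 13.2 at 22 C, and Mrpl4 averaged 69.1 ± 12.4 at 30 C and 68.4 ± 17.3 at 22 C (SD, n = 4 each). Neither passed (limma adjusted p = 0.826 and 0.965).

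Some genes that serve the mitochondrial ribosome also fell at 30 C. Among 15 tested translation factors 5 fell: Gfm1, elongation factor G, Taco1, an activator of cytochrome oxidase subunit translation, Mtres1, a rescue factor, Tufm, elongation factor Tu, and Lrpprc, which stabilizes mitochondrial messenger RNAs. Gfm1 averaged 315 ± 12.8 normalized counts at 30 C and 501 ± 20.4 at 22 C (SD, n = 4 each). Its fold change was -0.67 ± 0.06 on the log2 scale (limma adjusted p = 0.0017). Of 28 assembly genes 3 fell, the protease subunits Afg3l2 and Spg7 and the assembly factor Mpv17l2. None of 14 mitochondrial aminoacyl-tRNA synthetases passed limma (6 at an unadjusted p under 0.05), nor did any of 6 mitochondrial transcription genes (4 unadjusted). Of 9 regulators only Esrra, a nuclear receptor of mitochondrial gene programmes, passed, with a log2 fold change of -0.40. The cytosolic ribosome went the other way: 7 of 71 genes rose and 0 fell, with a median of 0.18, and the sign of that median was the same with the other scalings tried. After quantile normalization 12 rose. Once a score of skeletal muscle markers was a covariate, 0 of them passed (median 0.26). In that fit 1 of 15 translation factors and 0 of 28 assembly genes fell, and 0.668% of all tested genes passed.

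Other tissue content moved with these values. Ucp1 averaged 109 ± 52.0 normalized counts at 30 C and 1758 ± 570 at 22 C (SD, n = 4 each), and the 5 thermogenic markers summed to 710 to 1383 per library at 30 C and 2131 to 4060 at 22 C. The part of thermogenic cells in the fall of the members was not tested. The 13 measured skeletal muscle markers summed to 374 to 19852 at 30 C and 392 to 1103 at 22 C, with all 12 tested ones higher on average and none passing limma (5 unadjusted). With the muscle score as a covariate 0 members and 0.668% of all tested genes passed, though the median of the members was -0.23. With the 3 muscle-rich 30 C libraries left out, leaving 1 library against 4 and assuming that it varies like the others, 0 members and 0.0693% of genes passed, and the median was -0.25. The 6 macrophage markers summed to 7268 to 8875 at 30 C and 5820 to 6466 at 22 C, with 1 higher by limma (4 unadjusted), and the part of macrophages was not tested. Within libraries high in Xist, the mean log2 level of members was 7.35 to 7.41 at 30 C (n = 3) and 7.56 to 7.68 at 22 C (n = 2); within those low in Xist it was 7.31 at 30 C (n = 1) and 7.53 to 7.63 at 22 C (n = 2).

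The number that passed rested on single libraries. It was 0 without 22 C replicate 2, 1 without 22 C replicate 4 or 30 C replicate 2 and 2 without 22 C replicate 1. It was 4 without 30 C replicate 4 and 6 without 30 C replicate 1 or 3. The median of the members stayed between -0.27 and -0.22. With single libraries left out 1.41% to 5.74% of all tested genes passed. Of 20 fits, Mrpl12 passed in 16, Mrps36 in 14, Mrpl34 in 13, Mrpl53 and Mrps23 in 11, Mrps2 in 10, Mrpl20 in 9, Mrps11 and Mrpl49 in 7, Mrps7 in 6 and Mrpl50 in 5. The log2 fold change ran from -0.60 to -0.23 for Mrps2 and from -0.56 to -0.25 for Mrps11.

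**Figure D2:**
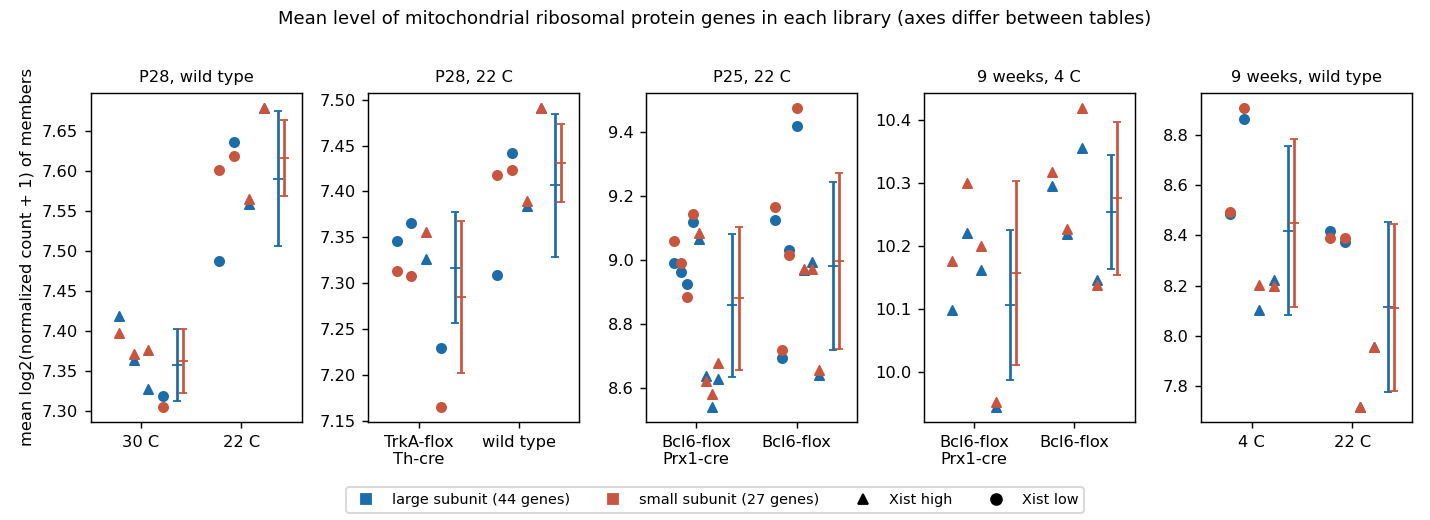
Mean log2(normalized count + 1) of the tested large (blue) and small (red) subunit members in each library, in the 5 tables, with group means and SD at the right of each group; triangles are libraries high in Xist and circles those low in it. The 30 C libraries lie below all 22 C libraries at P28, and in wild-type tissue at 9 weeks the libraries low in Xist lie above those high in it at each temperature.

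Few members passed the test between TrkA-flox Th-cre and wild type at P28. In TrkA-flox Th-cre tissue 2 of 71 members fell, 1 in each subunit, and 0 rose; 1.32% of the 11899 genes tested fell, 1.34% rose and 2.66% passed in either direction. The median log2 fold change was -0.09, against -0.01 over all tested genes, and 55 of 71 were negative. The summed members made up 0.276 ± 0.00273% of all normalized counts in TrkA-flox Th-cre and 0.298 ± 0.00425% in wild type (SD, n = 4 each). The mean log2 level of members was 7.21 to 7.34 in TrkA-flox Th-cre and 7.35 to 7.49 in wild type. Neither measure overlapped between the groups. The wild-type libraries are those of the temperature comparison, so both comparisons share their controls.

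Mrpl12 fell here as well, with 331, 411, 406 and 389 normalized counts in TrkA-flox Th-cre, against 567, 585, 482 and 592 in wild type. All 4 lay below all wild-type libraries (log2 fold change -0.53 ± 0.10; limma adjusted p = 0.0260). Mrps27, a pentatricopeptide repeat protein of the small subunit, had 115, 99.3, 96.7 and 99.5 in TrkA-flox Th-cre, against 160, 141, 145 and 171 in wild type, also without overlap (-0.58 ± 0.11; limma adjusted p = 0.0285). At 30 C Mrps27 had 147, 145, 122 and 135, against 182, 161, 164 and 195 at 22 C, scaled in the other table. Mrps27 exons overlap a transcript on the opposite strand over 506 bases.

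Members just short of the threshold went both ways. Mrpl33, a small large-subunit protein, had 219, 204, 195 and 168 in TrkA-flox Th-cre, against 131, 147, 133 and 155 in wild type (log2 fold change 0.47 ± 0.11; limma adjusted p = 0.0581). Mrps2 had 224, 177, 215 and 195 in TrkA-flox Th-cre, against 272, 245, 287 and 293 in wild type (-0.44 ± 0.10; limma adjusted p = 0.0581). Neither pair of groups overlapped, and neither passed. Mrps12 averaged 64.6 ± 19.9 in TrkA-flox Th-cre and 110 ± 11.7 in wild type (SD, n = 4 each; limma adjusted p = 0.0630). Groups were disjoint in 12 members that were lower and 2 that were higher, against 5.57% and 5.63% of all tested genes.

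Around the ribosome, Lars2, the mitochondrial leucyl-tRNA synthetase, fell to 338 ± 30.497 in TrkA-flox Th-cre, against 995 ± 515 in wild type, and Mpv17l2 fell to 107 ± 8.80 in TrkA-flox Th-cre, against 177 ± 17.8 in wild type (SD, n = 4 each; limma adjusted p = 0.0231 and 0.0133). They were the only ones of 14 synthetases and 28 assembly genes to pass. No translation factor passed limma (4 of 15 unadjusted), and no cytosolic ribosomal protein (11 of 71 unadjusted; median 0.14).

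Ucp1 averaged 419 ± 202 in TrkA-flox Th-cre and 1546 ± 497 in wild type (SD, n = 4 each). Muscle markers summed to 1333 to 7280 in TrkA-flox Th-cre and 349 to 985 in wild type, with 3 of 13 passing limma as higher; macrophage markers to 7052 to 8234 in TrkA-flox Th-cre and 5108 to 5722 in wild type, with 3 of 6 higher; and Schwann cell markers to 721 to 1119 in TrkA-flox Th-cre and 1203 to 2211 in wild type, with 1 of 4 lower. The muscle score ran from 5.72 to 8.31 in TrkA-flox Th-cre and from 4.28 to 5.10 in wild type. The groups did not overlap in it, so a fit with this covariate cannot separate muscle content from genotype. With the muscle score as a covariate 0 members and 0.134% of all tested genes passed, against 2.66% without it. Of the members 49 were negative and the median was -0.13. Mrpl12 then had a log2 fold change of -0.28, and Mrps27 one of -0.76 ± 0.17 (limma adjusted p = 0.234). The part of macrophages and Schwann cells was not tested. The count was 0 without TrkA-flox Th-cre replicate 2 or 3 or wild-type replicate 2 or 4. It was 6 without TrkA-flox Th-cre replicate 4, where 7.15% of all tested genes passed. Mrpl12 and Mrps27 each passed in 12 of 19 fits. Among libraries low in Xist, the mean log2 level of members was 7.21 to 7.34 in TrkA-flox Th-cre (n = 3) and 7.35 to 7.44 in wild type (n = 2); among those high in it, 7.34 in TrkA-flox Th-cre (n = 1) and 7.39 to 7.49 in wild type (n = 2).

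**Figure D3:**
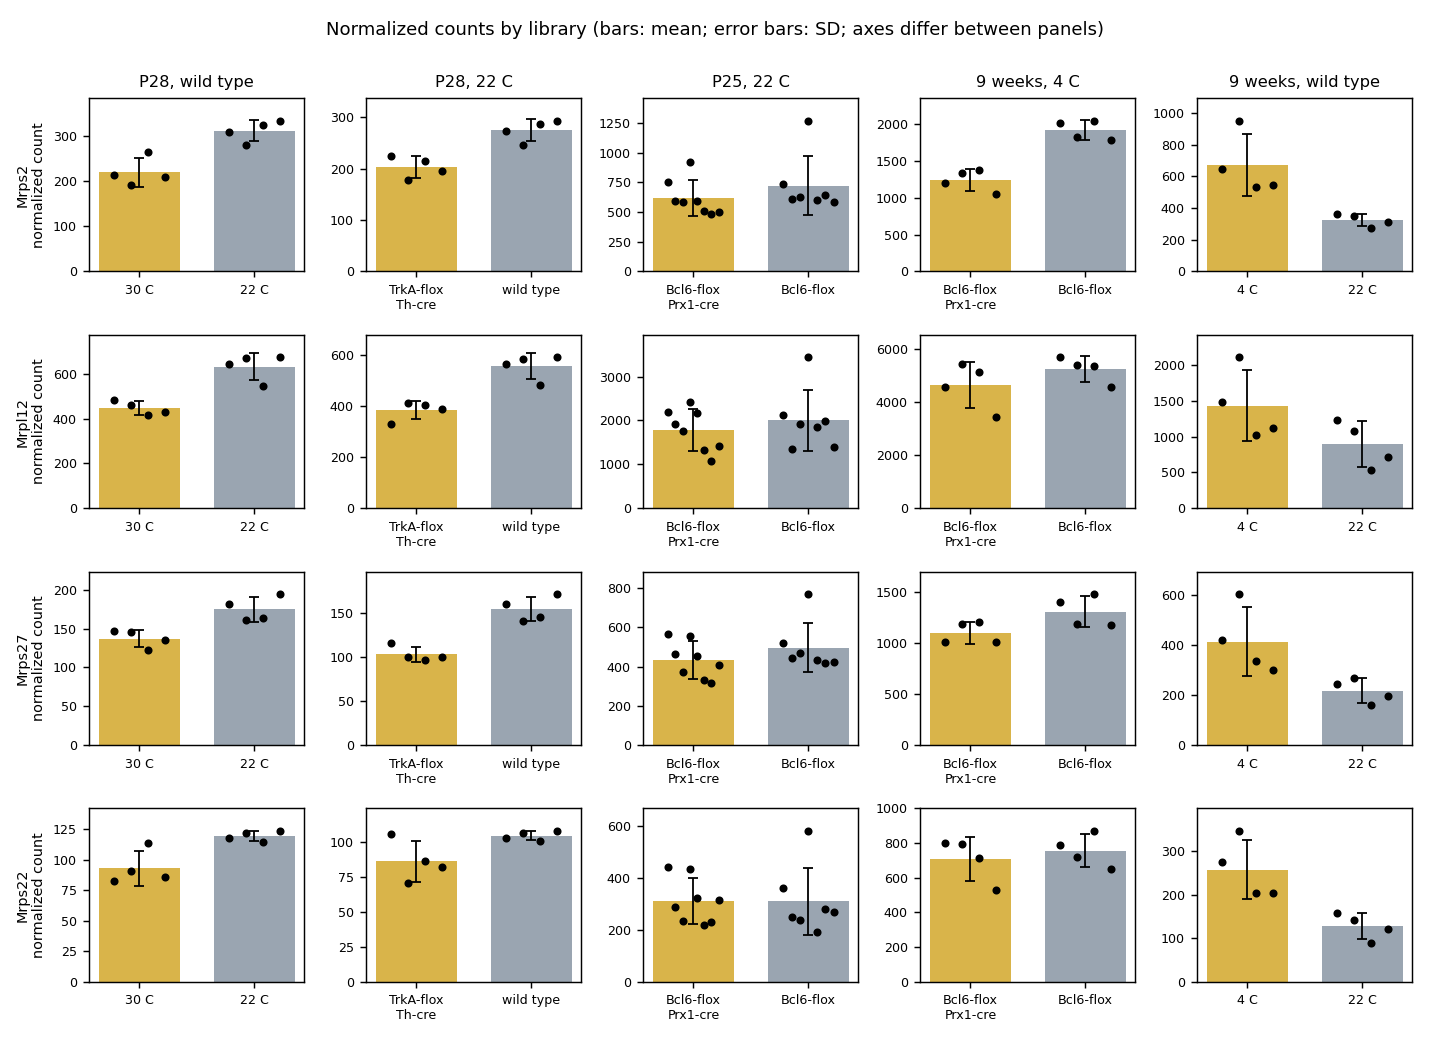
Normalized counts of Mrps2, Mrpl12, Mrps27 and Mrps22 in each library (points), with group means (bars) and SD (error bars), in the 5 tables; vertical axes start at 0 and differ between panels. Mrps2 is lower at 30 C and in Bcl6-flox Prx1-cre tissue at 9 weeks, and higher at 4 C.

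In Bcl6-flox Prx1-cre tissue at P25, a single mitochondrial ribosomal protein gene passed, and it rose: Mrps6. Of 71 members 1 rose and 0 fell, where 1.56% of the 12738 genes tested rose, 1.97% fell and 3.53% passed in either direction. The other members leaned the other way without passing: 62 of 71 had negative log2 fold changes, and the median was -0.13 against 0.00 over all tested genes. That median ran from -0.19 to -0.06 with single libraries left out, and was nearest 0 without the Bcl6-flox library M4, with 53 negative. Total Bcl6 counts averaged 2714 ± 584 (SD, n = 8) in Bcl6-flox Prx1-cre and 825 ± 340 (SD, n = 7) in Bcl6-flox, so the gene total did not fall; gene totals do not show which exons were read.

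Mrps6 ran from 1178 through a median of 1547 to 1863 normalized counts in Bcl6-flox Prx1-cre, against 658 through a median of 897 to 1022 in Bcl6-flox. Every Bcl6-flox Prx1-cre library lay above every Bcl6-flox library, as in 0.652% of all tested genes; no member was disjoint in the other direction, as 0.644% of genes were. The log2 fold change was 0.89 ± 0.12 (limma adjusted p = 0.000262). It passed in all 26 fits, which include each library left out in turn, with log2 fold changes of 0.82 to 0.94.

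At 9 weeks and 4 C, Mrps6 had 3663, 4320, 2960 and 2766 normalized counts in Bcl6-flox Prx1-cre, against 1620, 1653, 1180 and 1429 in Bcl6-flox. The groups were again far apart, with a fold change of 1.21 ± 0.16 on the log2 scale (limma adjusted p = 0.0028), and all 18 fits passed. The effect at P25 minus that at 9 weeks was -0.32 ± 0.20 (t test of the difference, adjusted p = 0.687), which did not pass. The mice were at 22 C at P25 and at 4 C at 9 weeks, so age and temperature cannot be told apart. In the other 3 comparisons Mrps6 did not pass. It averaged 294 at 30 C and 311 at 22 C, 317 in TrkA-flox Th-cre and 274 in wild type, and 332 at 4 C and 431 at 22 C.

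Mrps6 lies on the plus strand of chromosome 16, and Slc5a3, the sodium and myo-inositol cotransporter, starts beside it on the same strand. Their annotated exons share 159 of the 1533 exon bases of Mrps6, and the gene model Gm49711 shares 305. Slc5a3 ran from 956 to 2204 normalized counts in Bcl6-flox Prx1-cre, against 308 to 792 in Bcl6-flox, at P25 (log2 fold change 1.44 ± 0.20; limma adjusted p = 0.000458). At 9 weeks and 4 C it had 8492, 9238, 5483 and 5997 in Bcl6-flox Prx1-cre, against 2274, 2040, 858 and 1891 in Bcl6-flox (2.10 ± 0.31; limma adjusted p = 0.0041). Slc5a3 thus rose with Mrps6 at both ages. It also rose in TrkA-flox Th-cre tissue (0.58 ± 0.10; limma adjusted p = 0.0222), where Mrps6 did not pass (0.22 ± 0.11; limma adjusted p = 0.295). How reads in the shared exon were divided is not given in the sources used here, so part of the Mrps6 value may belong to Slc5a3, and this was not tested.

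**Figure D4:**
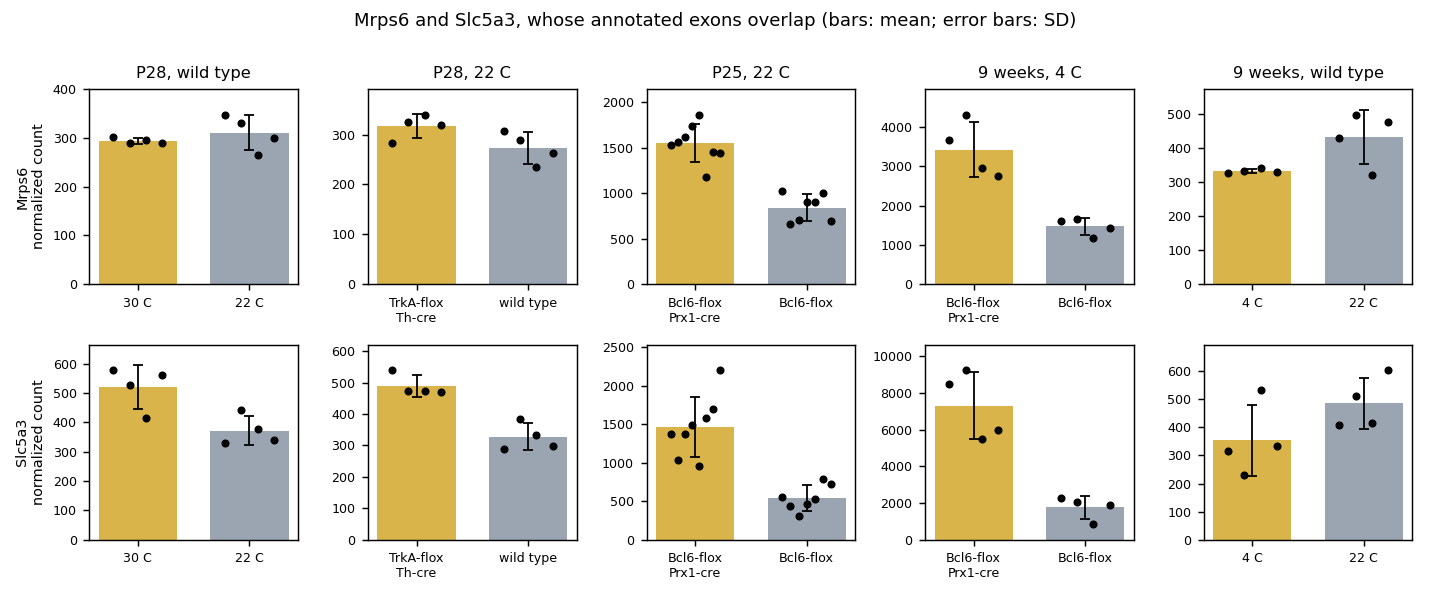
Normalized counts of Mrps6 (top) and Slc5a3 (bottom) in each library (points), with group means (bars) and SD (error bars), in the 5 tables; vertical axes start at 0 and differ between panels. In both Bcl6 tables the Bcl6-flox Prx1-cre libraries lie above all Bcl6-flox libraries for both genes.

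The members next to Mrps6 at P25 did not pass. Mrpl36 averaged 295 ± 33.2 in Bcl6-flox Prx1-cre (SD, n = 8) and 358 ± 51.5 in Bcl6-flox (SD, n = 7; limma adjusted p = 0.173). Mrps26, found only in mitochondria, averaged 400 ± 72.1 in Bcl6-flox Prx1-cre and 505 ± 101 in Bcl6-flox, and Mrpl37, also without a bacterial relative, 790 ± 130 in Bcl6-flox Prx1-cre and 965 ± 172 in Bcl6-flox (limma adjusted p = 0.247 and 0.276). The groups overlapped in each of these genes. Of the surrounding lists, Tsfm, elongation factor Ts, fell (log2 fold change -0.43 ± 0.11; limma adjusted p = 0.0389), and Ppargc1a, a coactivator of mitochondrial gene programmes, rose (0.56 ± 0.14; limma adjusted p = 0.0422). No assembly gene passed limma (4 of 28 unadjusted), no synthetase (2 of 14) and no transcription gene (0 of 6).

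The spread of member levels within each P25 group was wide. The mean log2 level of members ran from 8.55 to 9.13 in Bcl6-flox Prx1-cre and from 8.65 to 9.44 in Bcl6-flox. Among libraries low in Xist the mean was 9.01 in Bcl6-flox Prx1-cre and 9.08 in Bcl6-flox (n = 4 each), and among those high in it 8.73 in Bcl6-flox Prx1-cre (n = 4) and 8.87 in Bcl6-flox (n = 3). Ucp1 averaged 375 ± 234 in Bcl6-flox Prx1-cre and 6405 ± 3016 in Bcl6-flox (SD, n = 8 and 7), and the 5 thermogenic markers summed to 1688 to 4029 in Bcl6-flox Prx1-cre and 6618 to 18737 in Bcl6-flox, with 3 lower and 1 higher by limma; their part in the member values was not tested. Muscle markers summed to 270 to 92150 in Bcl6-flox Prx1-cre and 5496 to 43651 in Bcl6-flox, with none of 13 passing limma (0 unadjusted).

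At 9 weeks and 4 C, 3 of 71 members passed between the Bcl6 genotypes: Mrps6 and Mrpl45 rose and Mrps2 fell in Bcl6-flox Prx1-cre. That share is below the 14.5% of 13496 tested genes that passed, of which 9.01% rose and 5.46% fell. Again most members leaned lower, with 64 of 71 negative, 20 at an unadjusted p under 0.05, and a median of -0.15 against -0.02 over all tested genes. The lean was smaller without Bcl6-flox Prx1-cre replicate 4 (median -0.09, 49 negative), without Bcl6-flox replicate 3 (-0.09, 54 negative) and with library weights (-0.07, 48 negative).

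Mrps2 had 1199, 1341, 1383 and 1051 normalized counts in Bcl6-flox Prx1-cre, against 2016, 1829, 2050 and 1788 in Bcl6-flox. The groups did not overlap. The log2 fold change was -0.63 ± 0.10 (limma adjusted p = 0.0047), and all 18 fits passed. At P25 the log2 fold change of Mrps2 was -0.21, which did not pass; the effect at P25 minus that at 9 weeks was 0.42 ± 0.20 (t test of the difference, adjusted p = 0.523). For none of 71 members did the effects at P25 and 22 C and at 9 weeks and 4 C differ by this test (1 at an unadjusted p under 0.05), where 0.304% of 12487 genes did.

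Mrpl45, which faces the inner membrane at the tunnel exit, had 1715, 1876, 1821 and 1685 in Bcl6-flox Prx1-cre, against 1418, 1408, 1628 and 1369 in Bcl6-flox, without overlap (log2 fold change 0.29 ± 0.07; limma adjusted p = 0.0326; 11 of 18 fits passed). At P25 it averaged 847 ± 135 in Bcl6-flox Prx1-cre (SD, n = 8) and 715 ± 114 in Bcl6-flox (SD, n = 7), and did not pass (limma adjusted p = 0.354). Mrpl46, a neighbour of Mrps11 that is transcribed from the opposite strand, had 674, 742, 724 and 613 in Bcl6-flox Prx1-cre, against 909, 798, 980 and 771 in Bcl6-flox (-0.33 ± 0.10; limma adjusted p = 0.0630). Groups were disjoint in 4 members that were lower and 2 that were higher, against 10.1% and 12.2% of all tested genes.

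Of the surrounding genes that passed at 9 weeks and 4 C, all but a regulator fell in Bcl6-flox Prx1-cre. Gfm1 averaged 2801 ± 278 in Bcl6-flox Prx1-cre and 4011 ± 537 in Bcl6-flox (SD, n = 4 each; limma adjusted p = 0.0176), and Tsfm and Lrpprc also fell, 3 of 15 translation factors in all. The others were Mterf4 and Fastkd2, 2 of 28 assembly genes, Mars2, 1 of 14 synthetases, and Polrmt, the mitochondrial RNA polymerase, and Tfam, the packaging and transcription factor of mitochondrial DNA, 2 of 6 transcription genes. Myc, 1 of 9 regulators, rose (log2 fold change 0.82 ± 0.21; limma adjusted p = 0.0359). No cytosolic ribosomal protein passed limma (3 of 72 unadjusted).

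In this table Ucp1 averaged 17143 ± 8930 in Bcl6-flox Prx1-cre and 66626 ± 13562 in Bcl6-flox, and total Bcl6 11609 ± 2339 in Bcl6-flox Prx1-cre and 1995 ± 392 in Bcl6-flox (SD, n = 4 each). The 5 thermogenic markers summed to 10505 to 36837 in Bcl6-flox Prx1-cre and 71633 to 113110 in Bcl6-flox, with 4 lower. Muscle markers summed to 223 to 5895 in Bcl6-flox Prx1-cre and 2879 to 673860 in Bcl6-flox, with none of 13 passing limma (7 unadjusted), and macrophage markers to 13206 to 22705 in Bcl6-flox Prx1-cre and 7098 to 9478 in Bcl6-flox, with 5 of 6 higher. With the muscle score as a covariate the same 3 members passed, where 20.9% of all tested genes did, and the median of the members was -0.10. The part of thermogenic cells and macrophages was not tested.

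At 9 weeks, most members were higher at 4 C than at 22 C, but few passed the test. At 4 C, 2 of 71 members rose and 0 fell relative to 22 C, both of them small subunit genes, Mrps2 and Mrps22; of 12118 genes tested 2.03% rose, 2.44% fell and 4.47% passed in either direction. The log2 fold change was positive in 63 of 71, with a median of 0.29 against 0.02 over all tested genes. In 10 members every 4 C library lay above every 22 C library and in 0 below, against 9.16% and 8.15% of all tested genes. The summed members made up 0.360 ± 0.0551% of normalized counts at 4 C and 0.292 ± 0.0501% at 22 C (SD, n = 4 each).

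Mrps2 had 647, 952, 532 and 546 normalized counts at 4 C, against 363, 350, 273 and 313 at 22 C. The lowest 4 C library exceeded the highest 22 C library, and the log2 fold change was 1.01 ± 0.19 (limma adjusted p = 0.0332). Mrps22, a small subunit protein without a bacterial relative, had 276, 347, 204 and 205 at 4 C, against 157, 143, 88.6 and 121 at 22 C. It too showed no overlap, with a log2 fold change of 1.01 ± 0.23 and a limma adjusted p of 0.04999 that lies just under the threshold. Mrps2 passed in 13 of 19 fits, with log2 fold changes of 0.81 to 1.11, and Mrps22 in 8.

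Mrps27 had 420, 605, 335 and 298 at 4 C, against 246, 269, 160 and 196 at 22 C (log2 fold change 0.90 ± 0.25; limma adjusted p = 0.0745). Mrps5, near the messenger RNA entry of the small subunit, had 468, 727, 436 and 379 at 4 C, against 328, 340, 277 and 287 at 22 C (0.66 ± 0.19; limma adjusted p = 0.0852). Both had disjoint groups and neither passed. Gfm1 averaged 1389 ± 533 at 4 C and 552 ± 77.8 at 22 C, and Cars2, the mitochondrial cysteinyl-tRNA synthetase, 207 ± 38.2 at 4 C and 133 ± 4.87 at 22 C (SD, n = 4 each; limma adjusted p = 0.0374 and 0.0480). They were 1 of 15 translation factors and 1 of 14 synthetases; no assembly gene passed (4 of 28 unadjusted), no transcription gene (3 of 6) and no cytosolic ribosomal protein (3 of 72). These counts rested on the fit. With the Xist split as a covariate 7 of 15 translation factors, 5 of 14 synthetases, 2 of 28 assembly genes and 5 of 6 transcription genes rose. With the muscle score 6, 4, 3 and 5 of these lists rose. Of all tested genes 18.4% passed in either direction with the Xist split and 15.3% with the muscle score.

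Libraries high and low in Xist differed within each temperature. The mean log2 level of members was 8.49 and 8.88 at 4 C, against 8.41 and 8.38 at 22 C, in the libraries low in Xist. In those high in it the level was 8.14 and 8.21 at 4 C, against 7.72 and 7.96 at 22 C. The 4 C libraries thus lay above the 22 C libraries within each kind, while over both kinds the temperatures overlapped. With this split as a covariate 23 of 71 members rose and 0 fell, 13 of 44 large and 10 of 27 small subunit genes, a share of 32.4% where 10.1% of all tested genes rose and 18.4% passed in either direction. The median of the members, 0.29, was the same, since the split is balanced over temperatures. The members then with the smallest p were Mrps2, Mrps22, Mrps27, Mrpl50, Mrpl20, Mrpl46 and Mrpl12, with limma adjusted p-values of 0.0041 to 0.0151.

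Ucp1 averaged 21153 ± 13417 at 4 C and 289 ± 150 at 22 C (SD, n = 4 each), and the 5 thermogenic markers summed to 12215 to 55279 at 4 C and 1057 to 3378 at 22 C; their part in the rise was not tested. Muscle markers summed to 26.7 to 40511 at 4 C and 108 to 57659 at 22 C. The 4 Schwann cell markers summed to 732 to 908 at 4 C and 1789 to 2407 at 22 C, with 1 lower by limma. The 6 lymphocyte markers summed to 17.99 to 110.4 at 4 C and 48.3 to 1414 at 22 C; of 4 tested none passed limma (3 unadjusted), with a median log2 fold change of -2.89. The part of Schwann cells and lymphocytes was not tested. With the muscle score as a covariate 15 members rose, where 15.3% of all tested genes passed in either direction. With library weights 2 members rose and 2 fell, where 15.4% of all tested genes passed. The median of the members was then 0.03, with 37 positive and 34 negative. Without single libraries 0 or 1 member passed: 0 without 4 C replicate 1 or 4 or without 22 C replicate 1, 2 or 4. Without 22 C replicate 3 the single member that passed was lower at 4 C and was neither Mrps2 nor Mrps22. The median ran from 0.13 without 4 C replicate 2, with 56 members positive, to 0.40 without 22 C replicate 1, and was 0.17 without 22 C replicate 3.

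Housing at a lower temperature was thus compared at both ages, but over different temperatures, 22 C against 30 C at P28 and 4 C against 22 C at 9 weeks, so age and the temperatures used cannot be told apart. Mrps2 was higher in the cooler group at each age, by 0.51 at P28 and 1.01 at 9 weeks on the log2 scale. The difference between these, 0.50 ± 0.22, did not pass (t test of the difference, adjusted p = 0.256), and for none of 71 members did the 2 cooling effects differ (4 at an unadjusted p under 0.05), where 3.33% of 11618 genes did. With the Xist split in both fits 2 members differed, where 8.03% of all genes did. Mrps22 rose by 1.01 at 9 weeks and had an effect of 0.38 at P28 (adjusted p = 0.0475). Mrps15 had effects of -0.35 at 9 weeks and 0.31 at P28 (adjusted p = 0.0270); it had 434, 541, 352 and 362 normalized counts at 4 C, against 645, 650, 376 and 500 at 22 C, and 274, 335, 283 and 246 at 30 C, against 304, 408, 313 and 364 at 22 C at P28. Its groups overlapped at both ages.

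Members with well-described places in the particle leaned lower at 30 C without passing there. Mrpl10, which anchors the stalk that holds Mrpl12, averaged 315 ± 17.4 normalized counts at 30 C and 376 ± 19.2 at 22 C at P28 (SD, n = 4 each; limma adjusted p = 0.0737). Mrpl44, a large subunit protein with a ribonuclease III fold, averaged 139 ± 8.98 at 30 C and 175 ± 10.8 at 22 C (limma adjusted p = 0.0630), and Mrpl3, in the large subunit core, 224 ± 26.4 at 30 C and 291 ± 27.02 at 22 C (limma adjusted p = 0.0907). The groups of these 3 genes did not overlap. At 4 C none of the 3 passed in the fit of all libraries without a covariate; with the Xist split as a covariate Mrpl3 and Mrpl44 rose (log2 fold changes 0.45 and 0.43; limma adjusted p = 0.0449 and 0.0466).

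At the tunnel exit, Mrpl23 averaged 143 at both 30 C and 22 C at P28, and 197 ± 12.3 at 4 C and 198 ± 35.9 at 22 C at 9 weeks. Mrpl24 averaged 410.1 ± 31.4 at 30 C and 411 ± 30.9 at 22 C, and 601 ± 33.9 at 4 C and 547 ± 69.1 at 22 C. Neither passed in these comparisons, whereas Mrpl45 at the same exit rose in Bcl6-flox Prx1-cre tissue at 9 weeks. Of the 3 Mrps18 paralogs, Mrps18a sits in the large subunit and Mrps18b and Mrps18c in the small subunit. Relative to 22 C, Mrps18b had log2 fold changes of -0.39 at 30 C and 0.62 at 4 C. Those of Mrps18a were -0.13 and 0.40, and those of Mrps18c -0.04 and 0.29. None of the paralogs passed in the fits without a covariate.

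**Figure D5:**
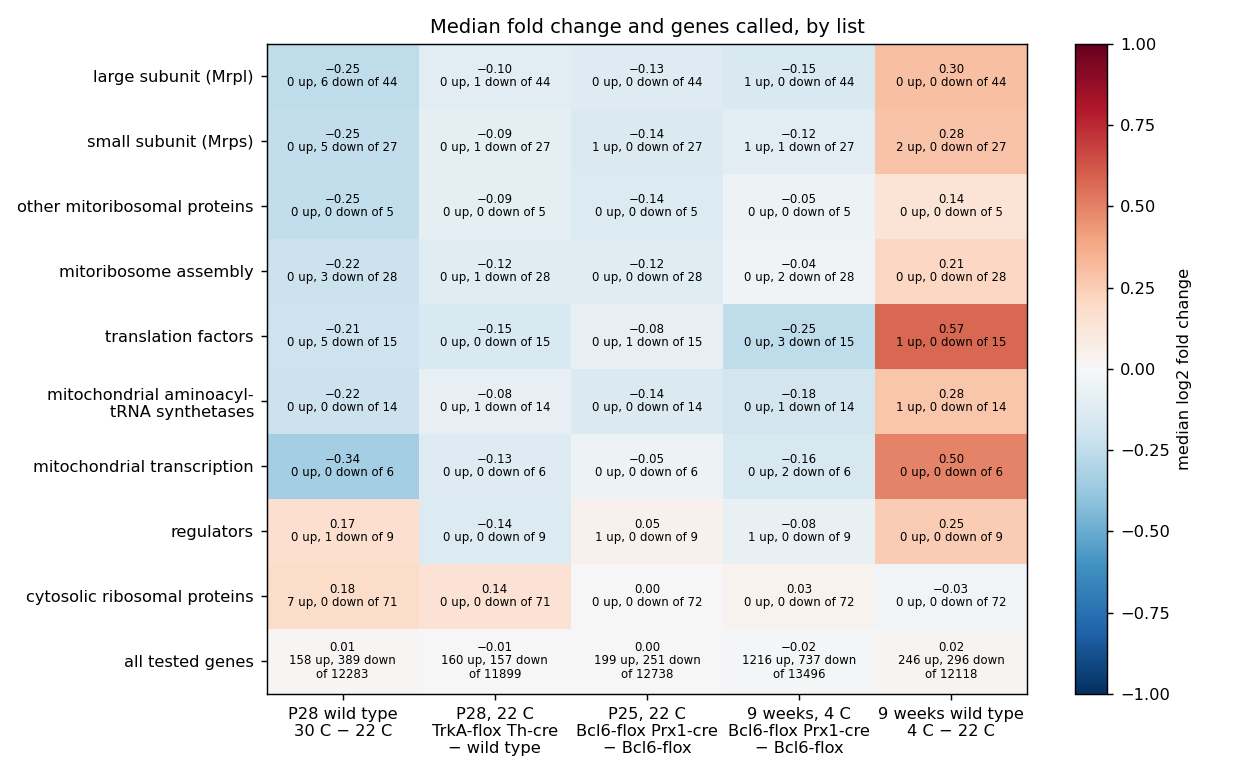
Median log2 fold change (colour and upper number) and counts of genes that passed as higher (up) or lower (down) for the members and the surrounding gene lists, in rows, in the 5 comparisons, in columns. Most mitochondrial translation lists share the sign of the ribosomal proteins in each column, while the cytosolic ribosome has medians of 0.18 and 0.14 in the P28 columns and close to 0 elsewhere.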

How the data were processed

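RNA of whole inguinal fat was sequenced from TruSeq Stranded mRNA libraries. The deposited values are a signal, normalized counts per gene that the authors scaled separately in 5 tables. Per the submitters' processing notes kallisto, DESeq2 and mm10 were used; no source used here gives their versions, the annotation or the strand setting. Groups were compared within a table only. Depth was estimated from the smallest step between low values, but between 5.89% and 68.2% of a library's low values fell on multiples of it (tolerance 0.02), so no counts were recovered and the precision of low genes is limited.

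Values were tested as log2(value + 1) with limma 3.58.1 (mean-variance trend, R 4.3.3) on the 2 groups compared, over genes reaching 10 in a number of libraries no smaller than the smaller group, with Benjamini-Hochberg adjustment over all tested genes and a threshold of 0.05. A fold change is on that scale and understates the change of low genes. Differences between the effects of separate tables used a t test with Welch-Satterthwaite degrees of freedom on the moderated standard errors. Alternatives were no filter, a minimum of 50, pseudocounts of 0.5 and 5, scaling by a trimmed mean of log ratios (TMM, own code), quantile normalization, a skeletal muscle score or the Xist split (log2 level above 7) as a covariate, a replicate block, library weights and leaving out each library. Leaving out the muscle-rich 30 C libraries, the block on the P25 column codes and the alternatives for the effect differences, were chosen after seeing the data. The scripts recovered known changes when tested on simulated data, with independent noise in each gene and log2 changes of 0.5 or larger. Smaller changes and shifts shared by the genes of a library were not simulated.

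The rule for named genes took up to 6 rises and 6 falls per comparison by size among members past the threshold with each library above, or each below, the opposite group's mean (the 4 smallest p where fewer than 4 passed), a panel of members chosen by role, up to 4 genes of smallest p per surrounding list, and Ucp1; other genes named were chosen after their values were seen. The members and lists were chosen with earlier results of these data known. Shared replicate numbers or column codes were not treated as pairs in the main fits, though the check made here cannot exclude pairing. Some results are not reported here. Promoters came from RefSeq on GRCm38.p6 and motifs were searched with Python 3.11.15 and pandas 2.3.3; figures used matplotlib 3.10.9.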

Additional observations from a re-analysis of the deposited data

Results flagged for a closer look

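In 64 groups of 4 to 8 libraries checked for a library far from the others, 2 stood apart, where chance gives about 1 group in 20. The mean log2 level of the members was 7.21 in TrkA-flox Th-cre replicate 4, below the other libraries of that group at 7.33 to 7.34. Mrps27 was at 115 normalized counts in TrkA-flox Th-cre replicate 1, above the 96.7 to 99.5 of the other libraries of its group and below all wild-type libraries.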

How the results depend on the processing

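For 30 C against 22 C the number of members that passed, 11, was 6 without the filter, 7 after quantile normalization and 0 with the muscle covariate. It was 0 to 8 with single libraries left out. Of all tested genes 4.45% passed in the main fit, 2.37% without the filter, 4.3% after quantile normalization and 0.668% with the muscle covariate. For TrkA-flox Th-cre against wild type the 2 became 0 with the muscle covariate and 7 with library weights, and 0 to 6 without single libraries. Of all tested genes 2.66% passed in the main fit, 0.134% with the muscle covariate and 8.04% with library weights. For the Bcl6 genotypes at P25 it was 1 throughout, and at 9 weeks the 3 became 6 with library weights and 2 to 4 without single libraries. At 9 weeks 14.5% of all tested genes passed in the main fit and 35.4% with library weights. For 4 C against 22 C the 2 became 1 without the filter, with a pseudocount of 0.5 and after quantile normalization, and 0 to 1 without single libraries. The number was 15 with the muscle covariate, 23 with the Xist covariate and 4 with library weights. Of all tested genes 4.47% passed in the main fit, 2.08% without the filter, 4.41% with a pseudocount of 0.5 and 6.11% after quantile normalization. The shares were 15.3% with the muscle covariate, 18.4% with the Xist covariate and 15.4% with library weights. The difference of the cooling effects gave 2 members with the Xist covariate and 0 otherwise. The causes were not tested. The difference between subunits was recomputed only with pseudocounts of 0.5 and 5, a minimum of 50, subunits assigned by structure and single libraries left out. In these it moved by less than the spread between replicates, and ran from -0.0548 to 0.0763 over all libraries left out. It was not recomputed with the other scalings, the covariates, the replicate block or the library weights. Over the named genes, 362 values kept their side of the threshold, 149 lost it, 10 gained it and 0 reversed.

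With the replicate number as a block, 1 member passed for 30 C against 22 C and 0 for TrkA-flox Th-cre against wild type. For the Bcl6 genotypes at 9 weeks 2 passed, and for 4 C against 22 C 18 passed. In the same order 1.92%, 2.16%, 8.68% and 13.7% of all tested genes passed. Same-numbered libraries did not all deviate together. Their correlations ran from -0.662 to -0.021, -0.14 to 0.207, -0.346 to 0.161 and -0.262 to 0.768 in those comparisons. In none did every library correlate best with its own number, which does not show pairing and cannot exclude it. In wild-type tissue at 9 weeks, replicates 1 and 2 were low and 3 and 4 high in Xist at both temperatures, so there the numbers follow that split. The P25 columns of both genotypes are coded (M1, F2 and so on) in a way no sample label matches. With that code as a replicate block, added after seeing the data, 1 member passed, Mrps6, where 5.74% of all tested genes did. The correlations within a code ran from -0.216 to 0.616.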
